A study of Mus musculus with 24 samples.

Results

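Mitochondrial ribosomal protein genes were followed across 8 groups of mouse splenic B cells. The members were all genes whose symbol begins with Mrpl or Mrps followed by a digit, kept if they reached at least 0 log2 in at least 3 of 24 libraries. The rule found 76 symbols among 23420 genes, and all 76 passed the filter, which 11885 genes (50.7%) passed in all. The lowest member values were far above the filter, at 1.44 log2 in 1 naive library for Mrps6, 2.44 for Mrps36 and 2.81 for Mrps22, so the filter removed no member. By structure, 49 members belong to the large subunit, counting Mrps30 and Mrps18a, and 26 to the small subunit. Mrps36 is now known as a component of the 2-oxoglutarate dehydrogenase complex and was kept only because of its symbol.

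All libraries came from spleens of BALB/c mice, with 3 libraries per group and no genetic change or drug named. The groups were naive B cells, B cells activated in vitro for 4 h, 12 h and 24 h, B cells activated in vivo, and germinal center (GC) B cells at the early, peak and late stage. GC B cells are the antigen-activated cells that divide and mutate their antibody genes in lymphoid follicles. The stimulus, the immunogen, the days of the GC stages and the animals or cultures behind each library are not given in the sources used here, so the p-values rest on the spread among libraries alone, which may be technical.

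Mitochondria carry their own ribosome, which translates the few proteins encoded by mitochondrial DNA, all of them core subunits of the respiratory chain and of ATP synthase. Its RNAs are made in the mitochondrion, but its proteins are encoded in the nucleus, made in the cytosol and imported, so the nuclear genes followed here set only part of the machine. Some of these proteins have bacterial counterparts, 46 among the members as listed here, while 29 were listed as mitochondria-specific. Those 29 include Mrps18a and Mrps18b, although both are related to a bacterial protein, as described below. No mitochondrially encoded gene is among the symbols of the files (0 found), so the RNAs this ribosome translates were not analysed here.

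Values are log2 on a scale like CPM, counts scaled to a common library total, so 1 log2 unit is a 2-fold difference. Libraries of 1 group correlated at 0.984 to 0.994 across genes, and the SD of a member over the 3 libraries of a group had a median of 0.08 log2 and reached 0.33. All 6 B-cell markers were present in every group, with the lowest group mean at 5.85 log2 for Pax5 at 4 h, and the GC marker S1pr2 was at 8.56 to 8.73 log2 in the GC groups as group means, against at most 3.18 elsewhere. The Y-linked genes Ddx3y, Eif2s3y and Kdm5d had group means of 4.05 to 5.75 log2 in the naive and in vitro groups and of -6.18, the lowest value in the files, in the in vivo activated and GC groups. The source of the animals and the cell state therefore cannot be told apart in any comparison between these sets of groups. Summed over the macrophage and monocyte markers (8 of 10 passed the filter), the naive libraries held 45.4 to 52.4 CPM, the in vitro libraries 14.1 to 26.2, the in vivo activated libraries 34.6 to 44.2, the early GC libraries 179 to 315 and the peak GC libraries 115 to 266. The late GC libraries, at 496 to 2120, are described with the GC stages. Plasma cell markers (4 of 5 passed the filter) summed to 369 to 410 CPM in naive, at most 166 in the in vitro, 351 to 403 in the in vivo activated and 971 to 1580 in the GC libraries, mostly as Igj, the J chain gene, at 10.08 log2 in peak GC, while Sdc1 was at 0.62 there against 4.09 in naive cells.

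Across the 8 groups, naive cells had the lowest mean of 70 of 76 members. The 4 h group was lowest for 5 members and late GC for 1, Mrpl50. The highest mean was at 12 h in vitro for 33 members and at 24 h for 30, against 5 in early GC, 4 in in vivo activated cells, 3 in peak GC and 1 in late GC. Relative to each gene's mean over the 24 libraries, the median member stood at -0.75, -0.75 and -0.82 log2 in the naive libraries and at -0.01, -0.02 and -0.13 at 4 h. It reached 0.50, 0.47 and 0.48 at 12 h and 0.40, 0.44 and 0.59 at 24 h. The in vivo activated libraries were at 0.19, 0.06 and 0.17. Early GC was at -0.05, -0.02 and -0.13, peak GC at -0.02, -0.02 and -0.01, and late GC at -0.21, -0.08 and -0.08. The naive libraries lay below all others and the 12 h and 24 h libraries above all others, while the 4 h and GC libraries overlapped between these extremes. Large and small subunit genes had similar medians: the large subunit stood at -0.80 log2 in naive cells, rising to 0.48 at 24 h, and the small subunit at -0.73, rising to 0.48.

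**Figure D1:**
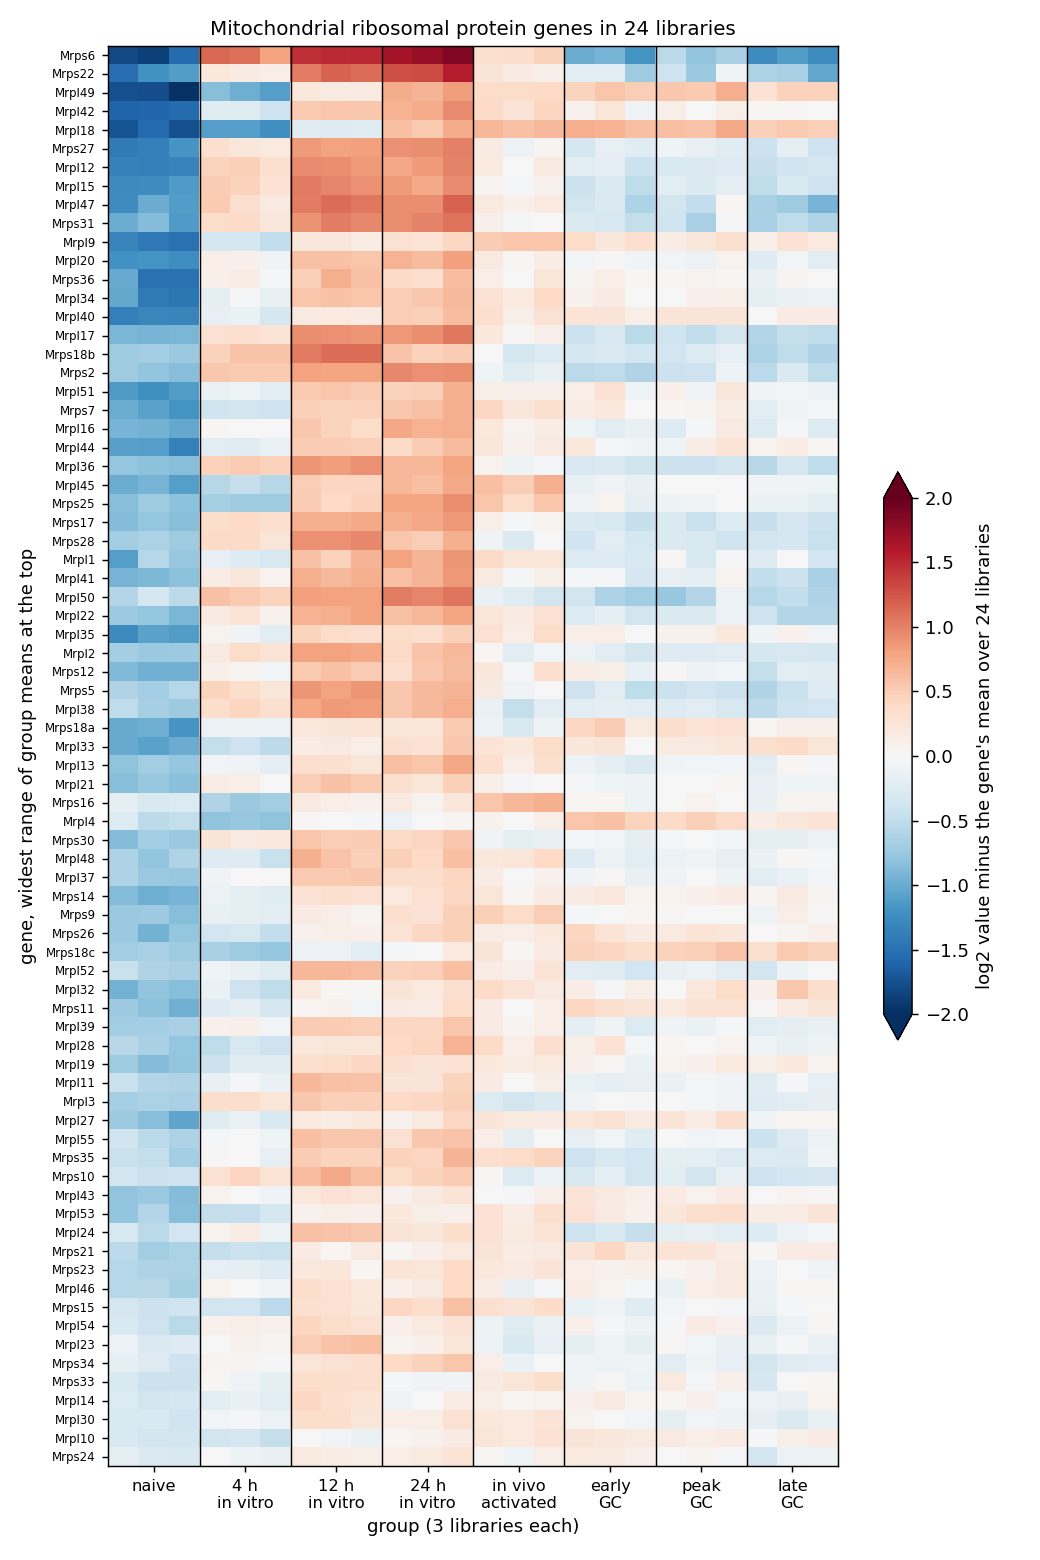
Level of each of the 76 mitochondrial ribosomal protein genes (rows, widest range of group means at the top) in each of 24 libraries (columns, 3 per group), as log2 value minus the gene's mean over all libraries, with colours saturating beyond -2 and 2. The naive columns are the lowest for most rows, with 70 of 76 genes having their lowest group mean there, and the 12 h and 24 h columns hold the highest group mean of 33 and 30 genes.

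The stretch of DNA just before the start of a gene holds sites for the factors that control it, and several such motifs are well known at genes for mitochondrial proteins. Promoter windows from RefSeq (build GRCm38.p6, from 250 bases before to 50 after the start) were found for 67 members, as 73 windows, and 9 members had none in the table. The 5 stretches shown are the 170 bases before the start of Mrpl12, Mrpl9 and Mrpl45, whose capitals mark the motif of NRF1 (nuclear respiratory factor 1) on either strand, of Mrps22, whose capitals mark the ETS motif CCGGAAG, and of Mrpl20, whose capitals mark the E-box CACGTG. They were chosen because Mrpl12, Mrps22 and Mrpl9 are among the members that rose most in a comparison, Mrpl45 holds 2 copies of its motif, and Mrpl20 has the profile closest to the mean of the other members. Other motifs in these stretches are left in lower case. They lie at chr11:120484467-120484636 on the plus strand for Mrpl12, chr3:94443166-94443335 plus for Mrpl9, chr11:97315546-97315715 plus for Mrpl45, chr9:98601680-98601849 minus for Mrps22 and chr4:155802708-155802877 plus for Mrpl20, each written 5′ to 3′ on the gene's strand. The starts are those of the RefSeq promoter windows. For Mrpl9 and Mrpl45 the RefSeq gene itself begins further upstream, at 94443154 and 97314923, and GENCODE vM21 also lists transcripts that start further upstream.
Mrpl12: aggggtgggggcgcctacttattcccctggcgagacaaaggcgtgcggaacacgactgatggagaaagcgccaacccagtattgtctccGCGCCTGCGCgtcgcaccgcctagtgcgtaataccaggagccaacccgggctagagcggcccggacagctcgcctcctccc
Mrpl9: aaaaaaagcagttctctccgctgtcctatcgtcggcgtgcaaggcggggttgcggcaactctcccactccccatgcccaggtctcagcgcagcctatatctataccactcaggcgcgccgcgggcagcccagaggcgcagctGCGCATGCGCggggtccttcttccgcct
Mrpl45: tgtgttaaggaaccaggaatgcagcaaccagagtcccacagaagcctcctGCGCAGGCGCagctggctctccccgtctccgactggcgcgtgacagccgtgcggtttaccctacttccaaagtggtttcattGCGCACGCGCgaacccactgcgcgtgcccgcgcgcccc
Mrps22: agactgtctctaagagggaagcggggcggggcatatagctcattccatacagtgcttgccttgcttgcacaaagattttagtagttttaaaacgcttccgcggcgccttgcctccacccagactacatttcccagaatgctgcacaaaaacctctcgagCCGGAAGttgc
Mrpl20: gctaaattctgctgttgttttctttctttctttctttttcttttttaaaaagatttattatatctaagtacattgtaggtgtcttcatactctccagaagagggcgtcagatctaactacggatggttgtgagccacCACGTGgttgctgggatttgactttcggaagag

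The NRF1 motif was in 16.4% of member windows (12 of 73), against 4.6% of all 32851 windows and 10.2% of the 11305 windows of tested genes. CCGGAAG was in 32.9% of member windows, against 8.9% of all windows and 17.9% of those of tested genes. The motif of YY1 was in 6.8%, against 0.9% and 2.1%. For the E-box the shares were 9.6%, 7.2% and 10.2%, for the SP1 motif GGGCGG 52.1%, 35.7% and 62.0%, and for CCAAT 41.1%, 37.4% and 38.0%. Both strands were searched, 1 gene can have several windows, and letters in a window are a description, not a bound site. The members with the NRF1 motif had a median difference from naive of 0.55 log2 at 4 h, against 0.86 for the 55 without it, and of 0.93 in peak GC against 0.73. Other motifs also split the members. For YY1 the medians in peak GC were 1.16 with it and 0.73 without, and for SP1 at 4 h 0.67 and 0.96. For CCGGAAG at 4 h they were 0.72 and 0.75. These are only some of the values by motif and comparison. No motif was tested against the response.

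After 4 h in vitro, 69 of 76 members were higher than in naive cells and 2 were lower, in a comparison in which 38.9% of all tested genes were higher and 39.1% lower. The median member rose by 0.73 log2 (1.65-fold). The median over all tested genes was -0.01, but the medians of all libraries lay within 0.019 log2 of each other. A value near 0 over all genes was thus largely set by the scaling of the values. Of the large subunit, 46 of 49 genes were higher and 1 lower, with a median of 0.80, and of the small subunit 22 of 26 were higher and 1 lower, with a median of 0.64. A gene is called here at an adjusted p under 0.05 in a two-sided limma test, adjusted by Benjamini-Hochberg across the tested genes. The 12 comparisons reuse the same groups, and in particular the 5 against naive cells share the naive libraries, so their counts are not independent.

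Among large subunit genes, Mrpl12, whose product forms the flexible stalk of the ribosome and also binds the mitochondrial RNA polymerase, was at 5.43, 5.41 and 5.45 log2 in the naive libraries, 7.22, 7.26 and 7.10 at 4 h and 7.72, 7.71 and 7.64 at 12 h. At 24 h it was at 7.56, 7.64 and 7.77, after in vivo activation at 6.98, 6.77 and 6.96, and in early GC at 6.56, 6.58 and 6.35. All activated and GC libraries lay above the naive ones, with the in vitro libraries highest. The difference at 4 h was 1.77 log2 (SE 0.07, limma adjusted p = 6.62e-17). Mrpl15, the counterpart of a core bacterial protein, rose by 1.64 at 4 h (SE 0.07, limma adjusted p = 6.42e-16). Per kilobase of exon, Mrpl12 also had the highest mean level of all members, at 6.17 log2 over the 24 libraries, followed by Mrpl54 at 6.16 and Mrps21 at 5.90, and Mrps10 had the lowest at 1.27. Exon bases here join the exons of all annotated transcripts of a gene, not those of the transcript in use. They number 1532 for Mrpl12, 825 for Mrpl54, 739 for Mrps21 and 8079 for Mrps10, so this order depends on the annotation too.

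Among small subunit genes, Mrps6 had the widest range of all members, 3.48 log2 (11.17-fold) between naive cells and 24 h. It was at 1.50, 1.44 and 1.76 log2 in the naive libraries, 4.45, 4.40 and 4.11 at 4 h, 4.77, 4.80 and 4.81 at 12 h and 4.96, 5.04 and 5.15 at 24 h. In vivo activated cells were at 3.63, 3.65 and 3.77, early GC at 2.31, 2.38 and 2.10, peak GC at 2.76, 2.52 and 2.66, and late GC at 2.04, 2.19 and 2.05. Every in vitro library was above every other library, and the GC libraries lay between the naive and the in vivo activated ones. The rise at 4 h was 2.75 log2 (SE 0.11, limma adjusted p = 1.11e-16). Mrps6, at chr16:92058336-92112227 (GRCm38), shares 159 exon bases, 10.4% of its exons, with Slc5a3 and 305 bases (19.9%) with the gene model Gm49711, both on the same strand. Slc5a3 is a gene for an inositol transporter and rose by 1.68 (SE 0.24) at 4 h, and it differed from naive by -0.87 in in vivo activated cells, where Mrps6 was higher by 2.12. How reads in the shared exon bases were counted is not known here, so the size of the Mrps6 change is uncertain. Mrps27, a mitochondria-specific protein that binds RNA, was at 3.29, 3.33 and 3.52 in naive and 5.03, 4.93 and 4.89 at 4 h, a rise of 1.57 (SE 0.08, limma adjusted p = 2.69e-14).

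The 2 members that fell at 4 h have bacterial counterparts, as do 46 of the 76 members as listed here. Mrps16 was at 5.50, 5.39 and 5.42 log2 in the naive libraries and fell to 5.08, 4.95 and 4.99 at 4 h, a difference of -0.43 (SE 0.06, limma adjusted p = 1.74e-06). It was highest in in vivo activated cells, at 6.25, 6.35 and 6.40. Mrpl4 was at 5.77, 5.53 and 5.58 in the naive libraries and fell to 5.25, 5.29 and 5.25 at 4 h, a difference of -0.36 (SE 0.06, limma adjusted p = 1.87e-05), and it was highest in early GC, at 6.61, 6.63 and 6.49. For both genes the naive and 4 h libraries did not overlap. The other 5 members without a call at 4 h were Mrpl10, which anchors the Mrpl12 stalk (-0.05, SE 0.06), Mrpl14 (0.14, SE 0.07), Mrps15 (-0.03, SE 0.06), Mrps18c (-0.03, SE 0.07) and Mrps25 (0.09, SE 0.07).

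At 12 h all 76 members were higher than in naive cells, and at 24 h again all 76, where 41.7% and 42.2% of all tested genes were higher and 39.2% and 42.5% lower. The median rise was 1.27 log2 at 12 h and 1.23 at 24 h. From 4 h to 12 h all 76 members were called higher, with a median of 0.52, against 34.6% of all tested genes higher and 27.2% lower. The members that rose most in that interval were Mrpl49 (1.17, SE 0.07), Mrps25 (1.15, SE 0.07), Mrpl45, which helps attach the ribosome to the inner membrane (0.99, SE 0.06), and Mrps22 (0.93, SE 0.15). Mrps25 shares 69.8% of its exon bases with Nr2c2 on the opposite strand, and the strand setting of the counting is not given in the sources used here, so its value is uncertain.

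From 12 h to 24 h the members divided, with 19 higher and 14 lower and a median of 0.02 log2, where 22.5% of all tested genes were higher and 34.8% lower. This split rests on single libraries: without the third 24 h library it was 10 higher and 16 lower, with a median of -0.04, and without the first 24 h library 20 higher and 9 lower. Mrpl18, whose bacterial counterpart binds ribosomal RNA in the large subunit, was at 4.61, 4.78 and 4.57 in naive cells, 5.23, 5.23 and 5.10 at 4 h, 6.09, 6.07 and 6.09 at 12 h and 6.93, 6.86 and 7.07 at 24 h. Mrpl18 was near that level in other groups too, with in vivo activated libraries at 6.99, 6.92 and 6.98 and early GC libraries at 7.05, 7.02 and 6.94. The 12 h and 24 h libraries did not overlap, and the rise between them was 0.87 log2 (SE 0.06, limma adjusted p = 5.91e-11). Its exons share 141 bases with Tcp1, a chaperonin subunit on the opposite strand, which was already 1.26 log2 higher at 4 h (SE 0.05). Mrpl49 rose by 0.56 (SE 0.07), Mrps25 by 0.38 (SE 0.07) and Mrpl40 by 0.35 (SE 0.07). Falls were largest for Mrps18b (-0.58, SE 0.08), Mrpl23 (-0.42, SE 0.07), Mrps33 (-0.39, SE 0.09) and Mrps28 (-0.35, SE 0.08).

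Genes of cell division followed another course over the same groups. All 5 markers (Mki67, Top2a, Ccnb1, Cdk1 and Ccna2) were lower than naive at 4 h, with a median of -1.67 log2, where 69 members were higher. From 4 h to 12 h all 5 rose, as did all 76 members, with a median of 1.10. At 12 h Cdk1 was higher than naive (0.68, SE 0.13), Mki67 (-2.30, SE 0.11) and Ccna2 (-0.84, SE 0.10) were lower, and Top2a (0.16, SE 0.09) and Ccnb1 (0.17, SE 0.17) did not pass the test. Their summed level was 70.5 to 86.3 CPM in naive cells, 26.3 to 29.0 at 4 h, 55.3 to 58.2 at 12 h, 1340 to 1390 at 24 h, 2010 to 2090 in in vivo activated cells and 2210 to 2970 in the 9 GC libraries. The part of division in the members' changes was not tested.

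**Figure D2:**
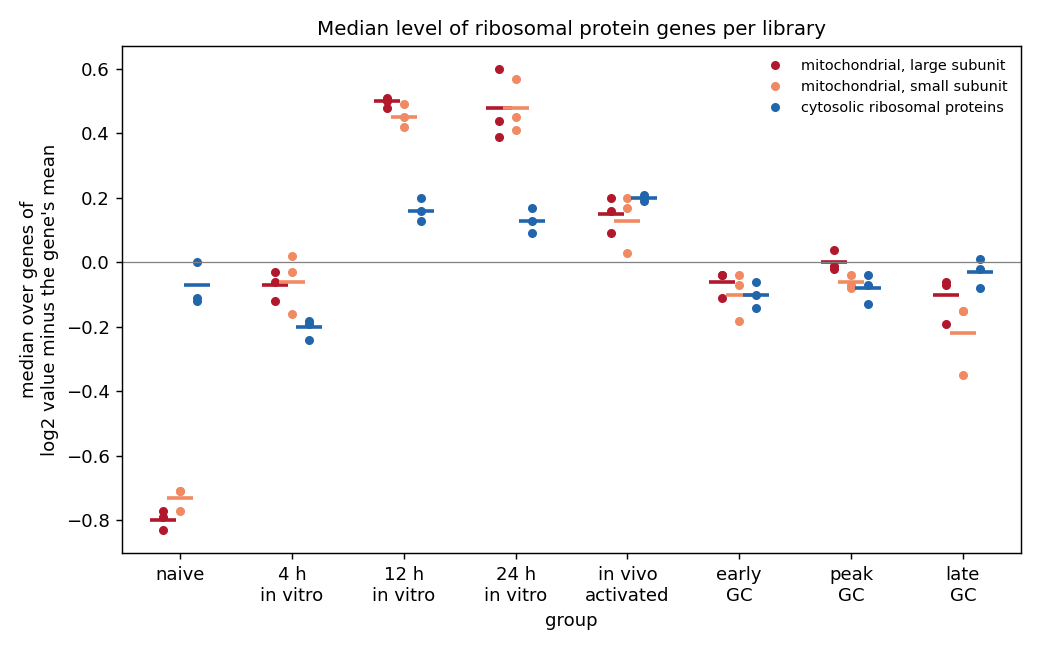
Median over genes of the log2 value minus the gene's mean over 24 libraries, for 49 large subunit and 26 small subunit mitochondrial ribosomal protein genes and 79 cytosolic ribosomal protein genes; points are libraries and bars the means of 3. The group means of the large subunit go from -0.80 in naive cells to 0.50 at 12 h, while those of the cytosolic genes stay between -0.20 and 0.20.

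In vivo activated cells differed from naive cells in the same direction as most members did in vitro. Of 76 members, 74 were higher and none lower, where 39.2% of all tested genes were higher and 40.1% lower. The Y-linked genes named above separate in vivo activated from naive cells, so source and state cannot be told apart here. The in vitro results also rest on the same naive libraries. The median rise was 0.94 log2 (SE of single members 0.04 to 0.15). Mrpl18 rose most (2.31, SE 0.06), followed by Mrpl49 (2.21, SE 0.07), Mrps6 (2.12, SE 0.11) and Mrpl9 (1.95, SE 0.06). Mrpl9 was at 4.71 ± 0.08 log2 (SD, n = 3) in naive cells, 6.46 ± 0.08 at 24 h in vitro and 6.67 ± 0.02 in in vivo activated cells, its highest group. The members without a call were Mrpl50 (0.23, SE 0.11, limma adjusted p = 0.0591) and Mrpl23 (0.02, SE 0.07).

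Set against 24 h in vitro, in vivo activated cells had 53 members lower and 4 higher, with a median of -0.33 log2, where 36.3% of all tested genes were lower and 33.6% higher. The falls were largest for Mrps6 (-1.36, SE 0.11), Mrpl50 (-1.27, SE 0.11), Mrps22 (-1.22, SE 0.15) and Mrps2 (-1.10, SE 0.08). Mrps22, a mitochondria-specific protein of the small subunit, was at 5.63, 5.64 and 5.90 at 24 h and at 4.60, 4.50 and 4.43 in vivo. In naive cells it was at 2.81, 3.13 and 3.22, so the 3 groups did not overlap. Higher in vivo were Mrps16 (0.49, SE 0.06), Mrps33 (0.31, SE 0.09), Mrpl9 (0.21, SE 0.06) and Mrpl10 (0.15, SE 0.06), whose call was lost without the third in vivo activated or the first 24 h library. The Y-linked genes named above separate these 2 groups as well.

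Peak GC cells had 72 members higher than naive cells and none lower, where 40.5% of all tested genes were higher and 39.3% lower, with a median of 0.73 log2. Summed plasma cell markers were at 1140 to 1350 CPM in peak GC against 369 to 410 in naive cells, and erythroid markers at 170 to 203 against 89.4 to 99.9, and their part in the result was not tested. Peak GC and naive cells are also separated by the Y-linked genes. Mrpl49 rose by 2.43 (SE 0.07), Mrpl18 by 2.32 (SE 0.06), Mrpl42 by 1.66 (SE 0.07) and Mrpl9 by 1.65 (SE 0.06), all large subunit genes. Mrpl49 was at 3.66 ± 0.13 (SD, n = 3) in naive cells, 4.51 ± 0.13 at 4 h, 6.24 ± 0.07 at 24 h, 5.87 ± 0.02 in vivo and 6.09 ± 0.11 in peak GC. Without a call were Mrps34 (0.13, SE 0.07), Mrps10 (0.15, SE 0.08), Mrpl23 (0.16, SE 0.07) and Mrpl50, a mitochondria-specific protein of the large subunit. Mrpl50 was at 4.68, 4.91 and 4.73 in naive cells and at 4.50, 4.67 and 5.14 in peak GC, against 6.28, 6.23 and 6.33 at 24 h in vitro. Its naive and peak GC libraries overlapped and the difference was 0.00 log2 (SE 0.11).

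Against in vivo activated cells, peak GC cells had 35 members lower and 6 higher, where 35% of all tested genes were lower and 34.1% higher, with a median of -0.16 log2. The other 35 members passed in neither direction. Lower were Mrps6 (-1.04, SE 0.11), Mrps16 (-0.62, SE 0.06), Mrps35 (-0.61, SE 0.08) and Mrpl45 (-0.59, SE 0.06). Higher were Mrps18a (0.50, SE 0.08), Mrps18c (0.36, SE 0.07), Mrpl4 (0.34, SE 0.06) and Mrpl3, the counterpart of a core protein near the catalytic center (0.27, SE 0.04).

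**Figure D3:**
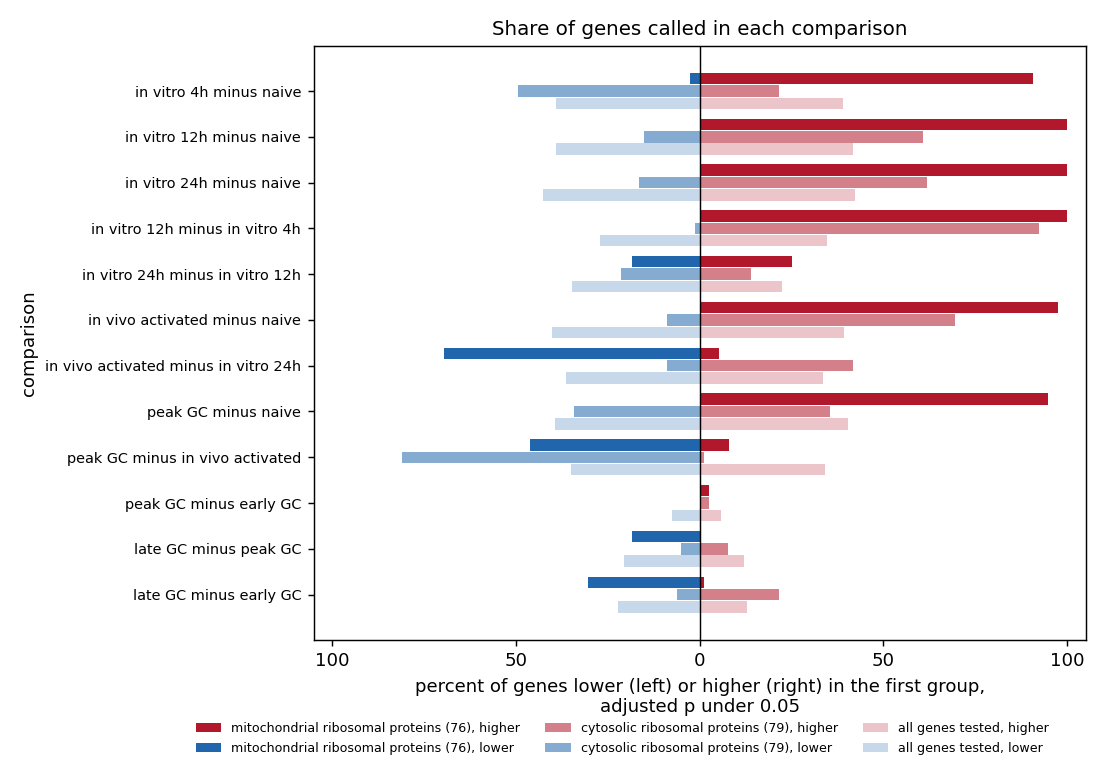
Percent of genes called higher (right, red) or lower (left, blue) in the first group of each of 12 comparisons, at a limma adjusted p under 0.05, for 76 mitochondrial ribosomal protein genes, 79 cytosolic ribosomal protein genes and all 11885 tested genes. The mitochondrial bars reach 90.8% to 100% higher in the comparisons of in vitro activated with naive cells, where all tested genes give 38.9% to 42.2%.

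Peak against early GC gave 2 higher and none lower, fewer than the 5.77% higher and 7.42% lower among all tested genes, with a median of 0.02 log2. These were Mrps6 (0.38, SE 0.11, limma adjusted p = 0.0205) and Mrps2 (0.24, SE 0.08, limma adjusted p = 0.0447). Mrps2 was at 4.64, 4.66 and 4.57 in early GC and at 4.75, 4.76 and 5.07 in peak GC, where 1 library stood above the other 2, and without that library its adjusted p was 0.26. Its call was also lost without early GC library 1, 2 or 3 (limma adjusted p = 0.0755, 0.0714 and 0.142), with a replicate block (0.0767), with no low-value filter (0.0632), with no trend or robust moderation (0.0508) and on only the 2 groups (0.268). Mrps6 lost its call without the third early GC library (limma adjusted p = 0.112) or the first peak GC library (0.0814), and on only the 2 groups (0.211).

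Late GC cells had 14 of 76 members lower than peak GC and none higher, with a median of -0.11 log2. Among all tested genes 20.6% were lower and 12% higher, so the share of members lower was not above that of all genes. The falls were largest for Mrps6 (-0.55, SE 0.11), Mrpl47 (-0.49, SE 0.12), Mrpl41 (-0.43, SE 0.09) and Mrps18b (-0.32, SE 0.08). Against early GC, 23 were lower and 1 higher, where 22.1% of all tested genes were lower and 13% higher, with a median of -0.10. Mrpl41 (-0.40, SE 0.09), Mrps22 (-0.39, SE 0.15), Mrpl47 (-0.35, SE 0.12) and Mrps24 (-0.35, SE 0.07) fell most, and Mrpl24 rose (0.26, SE 0.07). The call of Mrps22 was lost without early GC library 1 or 2 or late GC library 3 (limma adjusted p = 0.161, 0.18 and 0.22), with a replicate block (0.0671), with no low-value filter (0.0595), with no trend or robust moderation (0.066) and in a fit on only the 2 groups (0.12). That of Mrpl47 was lost without the same 3 libraries (0.0829, 0.125 and 0.131) and on only the 2 groups (0.091). On only the 2 groups Mrpl24 against early GC (limma adjusted p = 0.0678) and, against peak GC, Mrps6 (0.0641), Mrpl47 (0.0834) and Mrps18b (0.0803) also lost their calls. With a replicate block 10 members differed between late and peak GC and 16 between late and early GC.

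Markers of other cells also differed between the stages. Summed macrophage and monocyte markers were at 2120, 700 and 496 CPM in the late GC libraries, neutrophil markers (7 of 8 found) at 1060, 215 and 78.4, against 21.6 to 93.7 in peak GC and at most 124 in early GC, and erythroid markers (6 of 7 found) at 1400, 731 and 953, against 170 to 203 in peak and 306 to 736 in early GC. The neutrophil sums of the late GC libraries thus overlapped those of both other stages, and the erythroid sums those of early GC. Lyz2, the most abundant macrophage and monocyte marker here, had a late GC mean of 9.54 log2 against 6.97 in peak GC, Mpo, a neutrophil marker, 7.04 against 4.35, and the globin gene Hba-a1 was at -6.18 in every group. The first late GC library was highest in all 3 sums and had the lowest median of the members, at -0.21 log2. Without it, 6 members differed between late and peak GC in place of 14, and 13 between late and early GC in place of 24. The share of all tested genes called fell too, from 32.6% to 26.4% and from 35.1% to 30.5%. Leaving out other libraries also lowered the counts. Late against peak GC gave 9 members without peak GC library 3. Late against early GC gave 11 and 9 without early GC libraries 1 and 2. In bulk RNA, fewer B cells in a library and less of a transcript per cell cannot be told apart, and the part of these markers in the result was not tested.

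A single bacterial small subunit protein has 3 mitochondrial paralogs, Mrps18a, Mrps18b and Mrps18c. Mrps18b, in the small subunit, was at 4.02, 4.04 and 3.99 log2 in naive cells, 5.77, 5.85 and 5.85 at 12 h, 5.30, 5.19 and 5.24 at 24 h and 4.36, 4.46 and 4.57 in peak GC, with its highest libraries at 12 h, and its peak GC libraries were nearer to the naive than to the 12 h ones. Mrps18c, also in the small subunit, was at 4.76, 4.81 and 4.74 in naive cells, 4.81, 4.74 and 4.68 at 4 h, 5.42, 5.46 and 5.65 at 24 h and 5.91, 5.93 and 6.03 in peak GC, its highest group. Mrps18a, which sits in the large subunit, was at 4.31, 4.35 and 4.14 in naive cells, 5.20, 5.22 and 5.21 at 4 h, 5.53, 5.58 and 5.60 at 12 h, 5.55, 5.56 and 5.84 at 24 h, 5.74, 5.83 and 5.52 in early GC and 5.68, 5.60 and 5.63 in peak GC. Its libraries from 12 h, 24 h, early and peak GC overlapped, so no one of these groups stood out as its highest. These values set each gene against itself; the paralogs were not tested against each other.

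**Figure D4:**
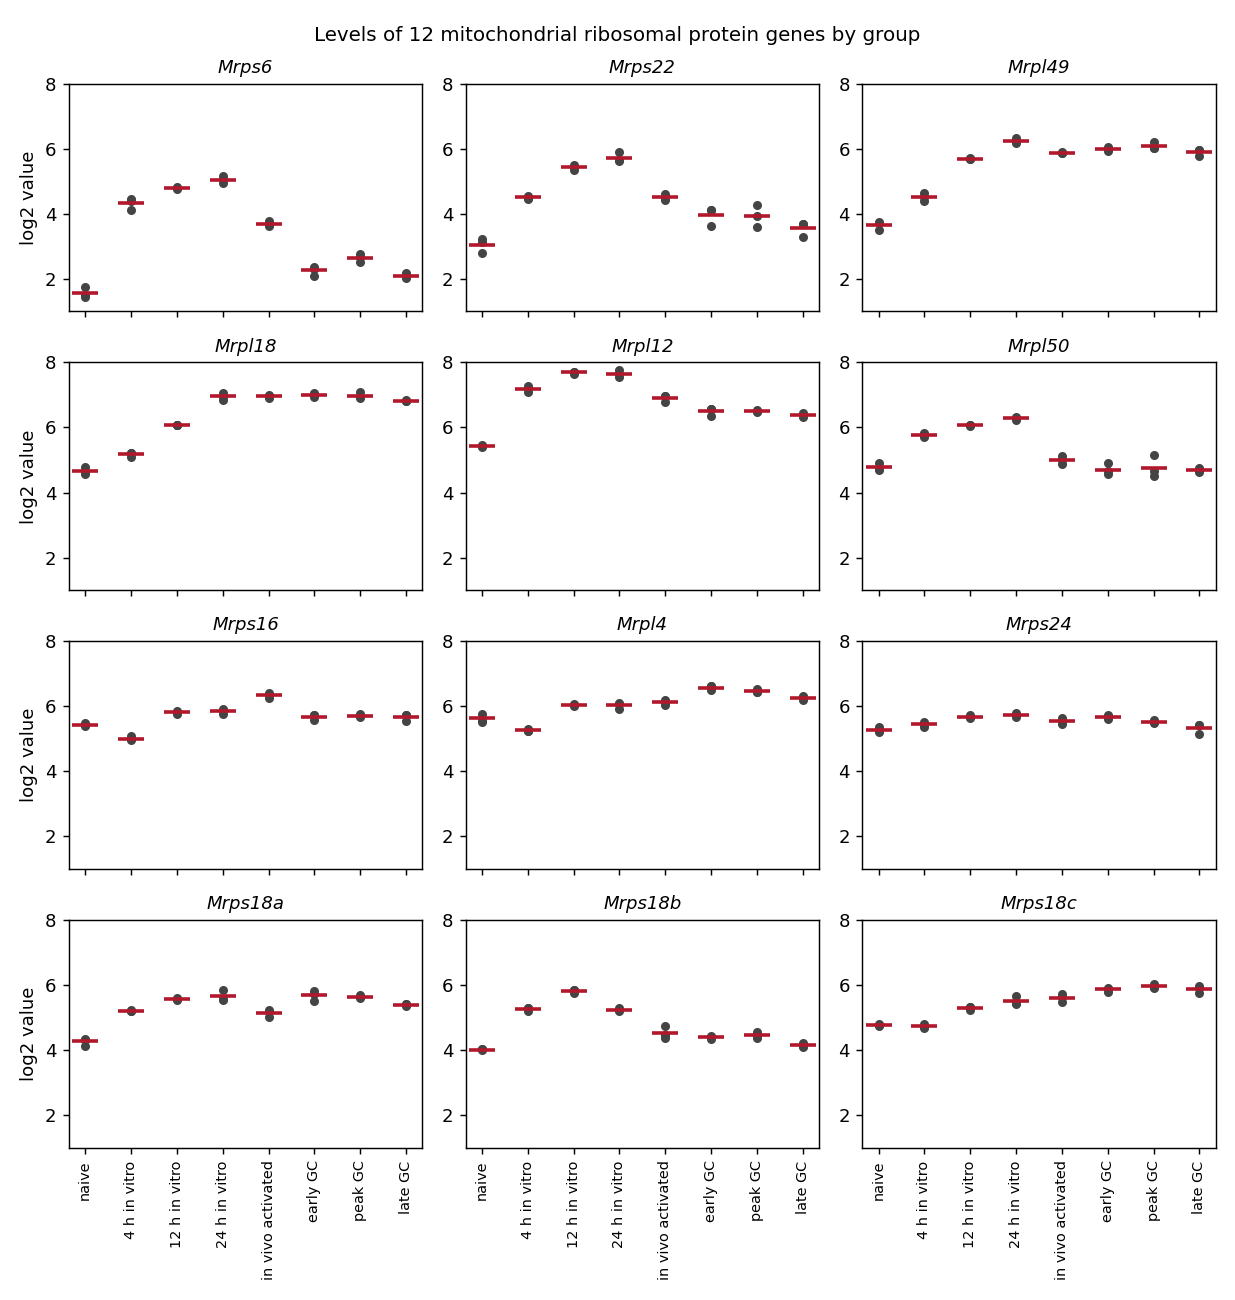
Deposited log2 values of 12 mitochondrial ribosomal protein genes in 8 groups; points are libraries and bars the means of 3, on one scale from 1 to 8 log2. Mrps6 spans 3.48 log2 between its lowest and highest group mean and Mrps24 spans 0.46, and Mrps18b is highest at 12 h while Mrps18c is highest in peak GC.

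Ranges of group means varied widely between members. The widest after Mrps6 were Mrps22 (2.67 log2), Mrpl49 (2.59), Mrpl42 (2.38), Mrpl18 (2.35) and Mrps27 (2.27). The narrowest were Mrps24 (0.46), Mrpl10 (0.63), Mrpl30 (0.64), Mrpl14 (0.67), Mrps33 (0.73) and Mrps34 (0.75). Mrps24 was at 5.35, 5.24 and 5.22 in the naive libraries, against 5.66, 5.72 and 5.80 at 24 h, without overlap. Mrps34 shares 63.4% of its exon bases with Mapk8ip3 on the opposite strand and 37.0% with Nme3 on the same strand. Mrps24 shares 15.4% with Urgcp on the same strand, so the ranges of both members are uncertain. As a description over 24 libraries, the correlation of a member with the mean of the other members had a median of 0.87, with 55 members at 0.8 or more, against 8.76% of the other tested genes. Mrpl20 followed the mean most closely (0.988) and Mrpl4 (0.25), Mrps18c (0.337) and Mrps16 (0.435) least. The 8 genes outside the set with the profile most like the members' mean were Cyc1 (0.993), Psmb2, Ilf2 and Tufm (each 0.99), Psmd6 (0.989), Eif2b1 (0.988), Rpp30 (0.987) and Mdh2 (0.987). The 24 points fall into the same 8 groups of 3 for every gene.

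The other genes of mitochondrial translation were counted as well. Of all tested genes, 38.9% were higher and 39.1% lower than naive at 4 h, and 41.7% and 39.2% at 12 h. The shares were 42.2% and 42.5% at 24 h, 39.2% and 40.1% in in vivo activated cells, and 40.5% and 39.3% in peak GC. The subunits with other names (Dap3, Ptcd3, Chchd1, Aurkaip1, Gadd45gip1, Mrp63 and Ict1) were higher than naive in 6 of 7 cases at 4 h and in 7 of 7 at 12 h, at 24 h, in in vivo activated cells and in peak GC. Gadd45gip1 rose by 2.01 log2 at 12 h (SE 0.09) and Ptcd3, a protein that binds RNA, by 1.86 (SE 0.07). Of 15 translation factors, 12 were higher and 2 lower at 4 h, 14 higher and none lower at 12 h, and 11 higher and 1 lower in peak GC. Tufm, the mitochondrial elongation factor that brings tRNAs to the ribosome, went from 5.0 log2 in naive cells to 6.23 at 4 h and 7.33 at 12 h, a rise at 12 h of 2.33 (SE 0.06, limma adjusted p = 2.18e-19). Taco1, an activator of the translation of a cytochrome oxidase subunit, rose by 2.66 at 12 h (SE 0.10) and was 1.79 higher than naive in peak GC (SE 0.10). Oxa1l, which inserts new proteins into the inner membrane, fell by 0.62 at 4 h (SE 0.05).

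Of 28 assembly factors, 23 were higher and 3 lower at 4 h, 24 higher and 1 lower at 12 h, and 14 higher and 3 lower in peak GC. All tested genes gave 38.9% higher and 39.1% lower at 4 h, 41.7% and 39.2% at 12 h, and 40.5% and 39.3% in peak GC. Wbscr16 rose by 2.02 at 12 h (SE 0.08), while Spg7, a protease subunit of the inner membrane that also processes a ribosomal protein, fell by 0.92 (SE 0.06). The 10 genes of mitochondrial transcription and replication gave 6 higher and 2 lower at 4 h, 7 and 3 at 12 h, and 3 and 2 in peak GC, where 40.5% of all tested genes were higher and 39.3% lower. Tfam, which packages mitochondrial DNA and starts its transcription, fell from 7.40 log2 in naive cells to 6.55 at 4 h, 6.60 at 12 h, 6.17 in vivo and 6.33 in peak GC, a difference at 4 h of -0.85 (SE 0.06, limma adjusted p = 1.56e-11). Peo1, the helicase of mitochondrial DNA replication now called Twnk, rose by 1.55 at 4 h (SE 0.08), and the polymerase subunit gene Polg2 fell by 1.16 (SE 0.11). Exons of Twnk overlap 33.4% of the exon bases of Mrpl43 on the opposite strand, so neither value is certain.

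Cytosolic ribosomal protein genes, the group most like the members in function, were counted in the same way, with no test between the groups. At 4 h 17 of 79 were higher than naive and 39 lower, with a median of -0.12 log2, where the members had 69 higher and a median of 0.73. At 12 h 48 were higher and 12 lower, with a median of 0.23, and from 4 h to 12 h 73 were higher, with a median of 0.34. All tested genes gave 38.9% higher and 39.1% lower at 4 h and 41.7% and 39.2% at 12 h. From 4 h to 12 h they gave 34.6% and 27.2%. In peak GC 28 cytosolic genes were higher and 27 lower than naive, with a median of 0.01, where 40.5% of all tested genes were higher and 39.3% lower. Peak GC against in vivo activated cells gave 64 lower and 1 higher, with a median of -0.27, and late against early GC 17 higher and 5 lower. Of all tested genes, 35% were lower and 34.1% higher in the former comparison, and 13% higher and 22.1% lower in the latter.

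Many members sit head to head with another gene. A protein-coding start on the opposite strand lay within 500 bases of the start of 16 members (21.1%), against 10.1% of the 11392 tested protein-coding genes. Of the 15 such neighbours that were tested, 10 were higher and 5 lower than naive at 4 h, and 8 higher and 5 lower in peak GC. Of all tested genes, 38.9% were higher and 39.1% lower at 4 h, and 40.5% and 39.3% in peak GC. Fau, a precursor of a cytosolic ribosomal protein, starts 59 bases from Mrpl49 and differed from naive by -0.83 log2 at 12 h (SE 0.05) and by -0.30 in peak GC (SE 0.05), where Mrpl49 was 2.03 and 2.43 higher. Ppp1r10, a phosphatase regulator, starts 45 bases from Mrps18b and differed by -0.72 at 12 h (SE 0.11) and by -2.0 in peak GC (SE 0.11), where Mrps18b was 1.81 and 0.45 higher. Psma2, a proteasome subunit 75 bases from Mrpl32, was higher by 1.16 at 12 h (SE 0.05), beside 0.95 for Mrpl32. Ncapd2, a condensin subunit needed in mitosis, starts 100 bases from Mrpl51 and differed by -0.71 at 4 h (SE 0.07) and by 3.34 in peak GC (SE 0.07), beside 1.01 and 1.25 for Mrpl51. Members thus lay beside partners that moved with them and partners that moved against them. These 4 pairs were chosen after their values were seen.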

How the data were processed

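RNA was measured in 24 libraries of 8 groups, assigned from the labels. Per the labels' protocols, cells were purified with beads, stained and sorted, libraries were made with a stranded mRNA kit and sequenced as pairs of 75 bases. The submitters' processing notes name mm10 as the genome, STAR 2.6.0c, cutadapt 1.8.3 and FastQC 0.11.5, and for counting and analysis featureCounts, Subread 1.6.2 and limma. The deposited values are log2 values on a CPM-like scale, as read from the values: 2 to the power of the values summed to 990678 to 1008194 per library. Libraries share nearly one distribution, and the means of the replicate numbers were equal for each gene to within 0.00088 log2, so any difference between numbers had been removed. The 16 residual degrees of freedom do not count that step, so the p-values may be too small. The depth per library is unknown.

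Genes at 0 log2 or more in at least 3 libraries (11885) were tested with limma 3.58.1 in R 4.3.3 on the deposited values, fitting a mean for each group to all libraries together, with robust moderation and a variance trend, two-sided, with Benjamini-Hochberg adjustment in each of 12 comparisons. The steps were tested on simulated data. Python 3.11.15 with numpy 2.4.6, pandas 2.3.3 and matplotlib 3.10.9 served for tables and figures. The members, the gene lists and the tests were chosen with earlier results of these data known. Named are, per comparison, up to 4 called members per direction with the largest change, members against the main direction, the 6 widest and 6 narrowest ranges, the Mrps18 paralogs, up to 2 genes per direction of each partner list, and the 8 most similar other genes. Not all partner genes under this rule are printed. Other members, such as those without a call and Mrpl20, were named after their values were seen. Same-numbered libraries correlated at -0.37 to 0.11 after removing group means, but with the means of the numbers already equal this check could not have shown a pairing, so whether the numbers pair libraries is unknown. Alternatives were a replicate block, no filter and a stricter filter, no trend or robust moderation, fits on only the 2 groups, median-centred libraries, and leaving out each library. Exons and neighbouring starts are from GENCODE vM21 (GRCm38, equal to mm10), gene positions and promoters from RefSeq. Some items are not reported here.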

Additional observations from a re-analysis of the deposited data

How the results depend on the processing

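Of 144 recomputed counts of called members, 128 stayed within 1.5 times the count in the report. The 16 that moved all belong to the comparisons between GC stages. Only totals were compared, not directions. For 24 h against 12 h in vitro, 19 higher and 14 lower became 10 and 16 without the third 24 h library. Peak against early GC, with 2 called members, gave 1 with a replicate block, 1 with no low-value filter, 1 with no trend and no robust moderation, and 0 in a fit on only the 2 groups, where Mrps6 had a limma adjusted p of 0.211. Leaving out a library gave 0 to 2. Late against peak GC, with 14, gave 1 on only the 2 groups and 6 to 17 without a library, with 6 without late GC library 1 and 9 without peak GC library 3. Late against early GC, with 24, gave 4 on only the 2 groups and 9 to 24 without a library, with 11 without early GC library 1, 9 without early GC library 2 and 13 without late GC library 1. The replicate block gave 71, 76 and 76 called members at 4 h, 12 h and 24 h against naive, 74 in vivo, 72 in peak GC, 10 for late against peak GC and 16 for late against early GC. Whether the replicate numbers pair the libraries could not be checked on these values. Over 1042 changes of single members and partner genes, 12083 of 12500 recomputed values kept their direction and side of the threshold, 355 lost the call, 62 gained one and 0 reversed. The precision is limited by 3 libraries per group and by a depth that is unknown, and for members that share exons with other genes by a counting strand that is not given in the sources used here.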
